A study of Mus musculus with 3 samples.

Results

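The mouse gene Sfmbt2 carries a long array of microRNA (miR) hairpins inside a single intron. The cluster was defined by position, as every located miR of the Sfmbt2 region of chromosome 2 in the mm10 build, and it held 139 of the 2045 located miRs of the series. These 139 miRs carried 70 distinct names and lay on 72 hairpins. Both arms were annotated at 67 hairpins and 1 arm at 5. The data came from 3 small RNA libraries of primary aortic smooth muscle cells (AoSMC) of C57BL/6 mice, grown from explants of several aortas in medium with serum and harvested near confluence without any other treatment. They formed 1 group with no control, so each comparison below was made between RNAs of the same library. The libraries are labelled as biological replicates, with nothing on separate cultures or animals, so the spread behind each p-value is that of these 3 samples and may be technical.

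A miR is cut from a hairpin in the primary transcript, first by Drosha in the nucleus and then by Dicer in the cytoplasm, and either the 5p or the 3p arm of the hairpin can yield the mature strand. A microRNA-offset RNA (moR) is a short RNA from the stretch that directly flanks the miR on the outer side of the hairpin. Sfmbt2 encodes a Polycomb group protein and is imprinted, with the paternal allele expressed. Its intronic mir-466, mir-467, mir-669 and mir-297 families arose by repeated duplication in rodents, are made largely of short tandem repeats, and are best known from early embryos and placenta.

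Sfmbt2 spanned 10370510 to 10595253 on the plus strand of chromosome 2. All 72 hairpins were on the same strand, between 10466663 and 10518279, a stretch of 51617 bp. They lay within one intron of 62472 bp, from 10461473 to 10523944, which was intron 10 of the transcript Sfmbt2-201 and intron 11 of Sfmbt2-205. None of the 72 overlapped an exon. The median gap between neighbouring hairpins was 209 bp, with gaps between 132 and 2575 bp.

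The repeat character of these families can be seen in 4 relatives annotated on other chromosomes, whose mature sequences were taken from RefSeq (GRCm38.p6) and are shown 5′ to 3′ with the seed, bases 2 to 8, in capitals. The sequences of the cluster members themselves were not analysed here.
miR-669n: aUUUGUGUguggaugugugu
miR-467h: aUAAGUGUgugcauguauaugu
miR-466k: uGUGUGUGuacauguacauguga
miR-467f: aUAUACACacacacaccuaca
In miR-669n, on chromosome 3 at 115979905 to 115979924, the dinucleotide UG occurred 7 times. In miR-467h, on chromosome 9 at 115381898 to 115381919, it occurred 5 times. In miR-466k, on chromosome 3 at 85467396 to 85467418, it occurred 7 times. miR-467f, on the minus strand of chromosome 11 at 69635419 to 69635439, had no UG, but the dinucleotide AC occurred 7 times. No 2 of these 4 shared a seed. Levels are given in RPMR, the authors' unit, which scales the reads of each miR or moR to the window total of its library. Of 11 relatives outside the cluster 4 had miR reads, and none of the 11 averaged 1 RPMR. miR-669n had 3, 2 and 3 reads in replicates 1, 2 and 3, miR-467h had 3 reads in all, and miR-466k and miR-467f had 0.

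The miRs of the cluster together summed to 1727, 1387 and 1596 RPMR in replicates 1, 2 and 3, a mean of 1570 ± 171 RPMR (SD, n = 3). With moRs included, its reads made up 0.173% (95% exact Clopper-Pearson interval 0.171 to 0.175), 0.139% (0.137 to 0.141) and 0.160% (0.158 to 0.162) of the window reads, a mean of 0.157% ± 0.0171 (SD, n = 3). The 3 intervals did not overlap, so the spread between libraries was larger than counting error. Read molecules were not tagged, so intervals and detection floors cover counting error only. The libraries held 12546339 to 15175671 window reads, and 1 read was worth 0.0659 to 0.0797 RPMR. These being bulk samples, a cluster present in few cells cannot be told apart from one present at a low level in every cell.

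For scale, the imprinted Dlk1-Dio3 cluster on chromosome 12, another large miR array, was measured in the same way. Its 115 located miRs summed to 1193 ± 23.0 RPMR (SD, n = 3). The ratio of the Sfmbt2 to the Dlk1-Dio3 cluster, moRs included, was 1.47, 1.14 and 1.34 in replicates 1, 2 and 3, so the Sfmbt2 cluster was higher in 3 of 3 libraries. On the log2 scale the ratio was 0.39 ± 0.19 (SD, n = 3), with an exact two-sided sign-flip permutation p of 0.25, the smallest that 3 libraries allow.

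The labelled cell type was checked against known miRs. The smooth muscle miRs miR-143 and miR-145a summed to 53394 ± 5221 RPMR (SD, n = 3), the endothelial miR-126a to 146 ± 18.2 RPMR, and the blood cell list to 0.863 ± 0.314 RPMR. The striated muscle list summed to 139 ± 19.3 RPMR, of which miR-206-3p alone made up 138 RPMR, while miR-1a-3p averaged 0.189 RPMR at each of its 2 loci and the other members were lower. Since the Sfmbt2 cluster is known from embryonic and placental cells, 13 hairpins of the mir-290 and mir-302 groups, which mark embryonic stem cells and early trophoblast, were also summed. They had 11 reads over the 3 libraries in all, against 65171 at the cluster. These markers were thus near 0 while the cluster was not.

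The cluster was carried by a small number of its members. Of 139 located miRs 50 had reads (36.0%), compared with 1085 of 1906 elsewhere in the series (56.9%), and 47 had reads in every library. The other 89 were at 0, and 77 of those 89 were in neither read table. On 40 of the 72 hairpins at least 1 miR had reads, and 32 hairpins were at 0. A mean of at least 10 RPMR was reached by 15 members (10.8%), against 15.1% of all located miRs, and all 15 were 5p miRs. They include miR-669d-5p at 2 loci and miR-466c-5p at 3 loci, with equal values at each locus of a name. A further 11 averaged between 1 and 10 RPMR, 7 of them from the 3p arm, and 24 had reads but averaged less than 1 RPMR. The 3 leading miRs held 67.5% of the miR reads of the cluster, the first 5 held 78.5% and the first 10 held 93.1%.

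By family, the mir-467 and mir-669 groups had nearly all of the reads. The mir-467 members together averaged 733 ± 52.5 RPMR (SD, n = 3) and held 46.7% of the miR reads of the cluster, from 6 of 28 located miRs with reads. The mir-669 members together averaged 718 ± 128 RPMR and held 45.7%, from 19 of 55. The mir-297 members together averaged 64.2 ± 3.94 RPMR and held 4.08%, from 5 of 9. The mir-466 family had reads at 20 of its 47 located miRs, which together averaged 54.7 ± 4.54 RPMR, 3.49% of the reads. The order of mir-669 and mir-467 differed between libraries. In replicates 1, 2 and 3 the mir-669 reads were 1.14, 0.891 and 0.896 times the mir-467 reads.

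The most abundant member was miR-669c-5p (10509319 to 10509340). It had 492, 344 and 376 RPMR in replicates 1, 2 and 3, from 6706, 4314 and 5707 reads, and was the 89th most abundant of all located miRs. Next came miR-467c-5p (10473941 to 10473962) with 327, 322 and 352 RPMR, and miR-467e-5p (10505731 to 10505752) with 354, 277 and 337 RPMR. The means of these 3 leading miRs were 404 ± 77.9, 334 ± 16.0 and 323 ± 40.5 RPMR (SD, n = 3), and their ranges over the libraries overlapped. Within each library miR-669c-5p was the highest of the 3, whereas the order of miR-467c-5p and miR-467e-5p changed between libraries.

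A clear step separated these from the next group. miR-669l-5p (10468989 to 10469010) had 106, 81.7 and 101 RPMR, and its highest library lay below the lowest value of any of the 3 leaders. miR-467d-5p (10507640 to 10507661) had 66.0, 75.8 and 87.8 RPMR. It differed from the rest of the leading members in that replicate 1 was its lowest library. miR-297b-5p (10511686 to 10511707), the only mir-297 member above 1 RPMR, had 68.4, 60.4 and 63.4 RPMR. miR-669e-5p (10467537 to 10467558) had 69.4, 48.3 and 63.5 RPMR, and miR-669o-5p (10514318 to 10514340) had 70.2, 42.2 and 55.4 RPMR. The ranges of these last 4 overlapped one another. miR-669b-5p (10467814 to 10467835) followed at 30.1, 22.1 and 25.7 RPMR. miR-669d-5p was given the same value at both of its loci, 25.9, 18.7 and 22.1 RPMR at each, and miR-669f-5p (10467248 to 10467271) had 21.8, 14.4 and 17.7 RPMR. The plot of the leading miRs by library shows both the step after the 3 leaders and the position of replicate 2.

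**Figure D1:**
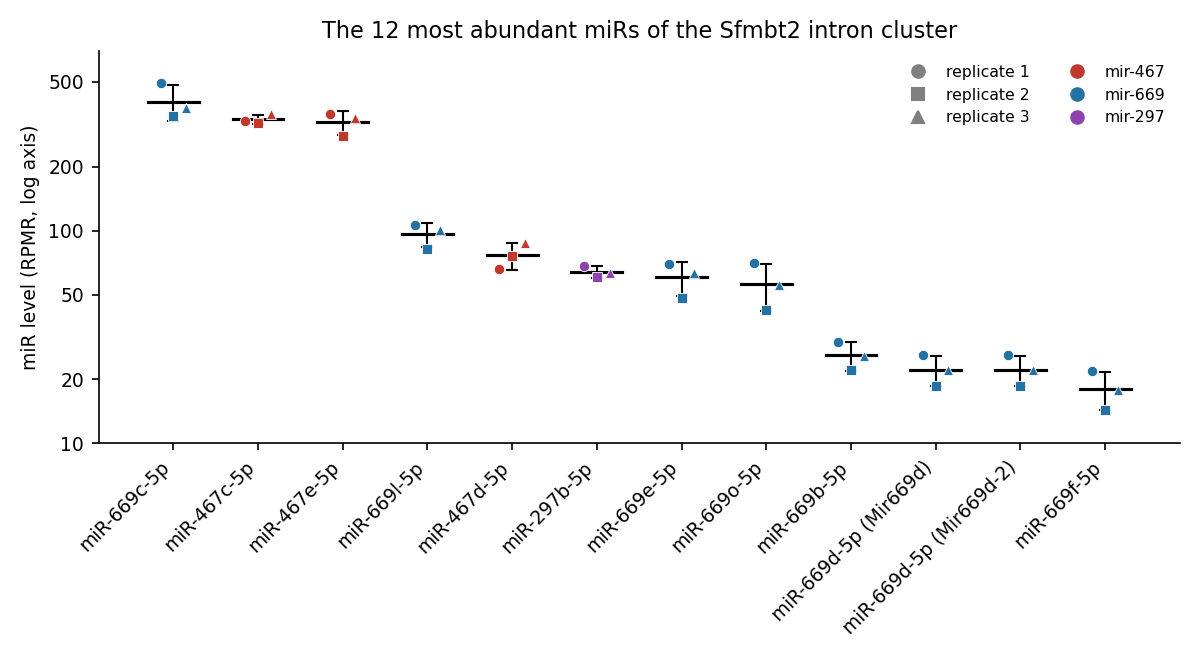
Level of the 12 most abundant miRs of the Sfmbt2 cluster, in RPMR on a log axis, with 1 point for each of 3 AoSMC libraries; the line is the mean and the bar the SD (n = 3). The 3 leading miRs lie between 277 and 492 RPMR and the others at or below 106 RPMR, and both loci of miR-669d-5p carry the same values.

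Replicate 2 was the lowest library for 14 of the 15 members that averaged at least 10 RPMR, and replicate 1 the highest for 13 of the 15. RPMR divides by window reads, which were 73.1% of mapped reads in replicate 1, against 83.0% and 81.9% in replicates 2 and 3. The order of libraries was counted in RPMR only. The cluster held 0.124% ± 0.00806 (SD, n = 3) of all mapped reads, against 0.157% ± 0.0171 of window reads. The coefficient of variation of RPMR over the 3 libraries was between 4.80% (miR-467c-5p) and 25.0% (miR-669o-5p) for these 15 members, with a median of 14.2%. Counting error alone would give 1.34 to 7.41% at their depths. The 15 include miR-669d-5p at 2 loci and miR-466c-5p at 3 loci, with equal split values, so these copies are not separate measurements.

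Because the array consists of copies, a read can match several of its hairpins, and the processing shaped what was counted. The authors dropped any read with over 5 matching places in the genome and split the remaining multiply matching reads evenly between precursors. The number of loci that shared a mature name was therefore set beside the reads. The 53 members with a name used at 1 locus held 94.4% of the miR reads of the cluster, and 34 of the 53 had reads (64.2%), compared with 994 of 1776 such miRs elsewhere (56.0%). The 27 members with a name used at 2 to 4 loci held 5.55%, and 14 had reads (51.9%), compared with 91 of 130 elsewhere (70.0%). The 59 members with a name at more than 5 loci held 0.0905%, and only 2 had reads (3.39%). No miR outside the cluster had so many loci.

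**Figure D2:**
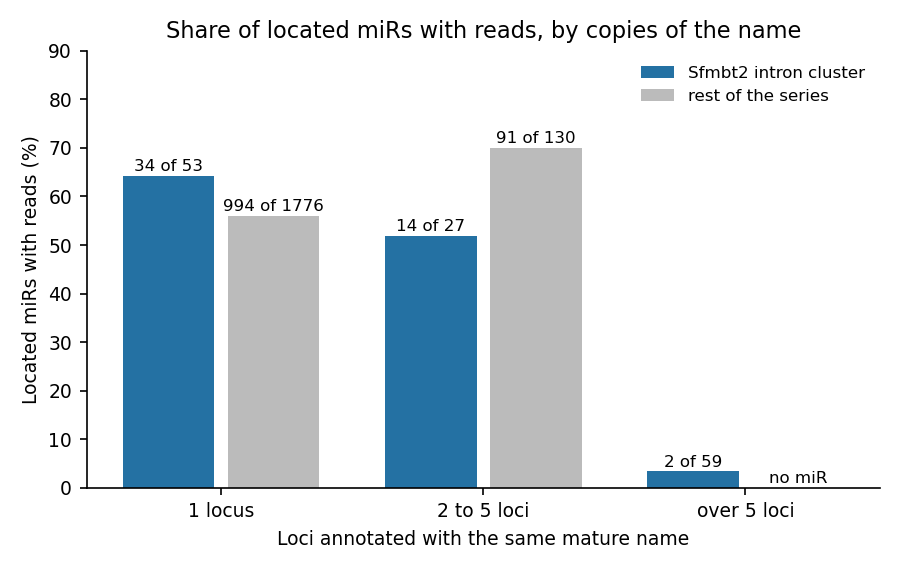
Share of located miRs with reads (%), by the number of loci annotated with the same mature name, for the Sfmbt2 cluster (left bars) and the rest of the series (right bars), with the counts above each bar. In the cluster the share is 64.2% at names with 1 locus and 3.39% at names with more than 5 loci.

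The names with more than 5 loci were 6. They were miR-669a-5p (12 loci), miR-669a-3p (11), miR-467a-5p and miR-467a-3p (10 each), and miR-466b-5p and miR-466b-3p (8 each). The 4 names of the mir-669a and mir-467a groups were at 0 at every locus. miR-466b-3p had 55 reads, all at Mir466b-3, and miR-466b-5p had 4, all at Mir466b-8. How many places in the genome each of these sequences matches was not counted, so how much the limit of 5 places removed was not tested, and a listed 0 does not show that these miRs were absent from the cells.

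Even splitting left its own mark. Of the 139 members 28 had a read number that was not whole, and 8 groups of members, 20 members in all, had the same non-zero value in every library. The largest were miR-669d-5p with 923 reads at each of 2 loci and miR-466c-5p with 546 at each of 3 loci (189, 149 and 207 reads in replicates 1, 2 and 3). Differently named members also shared values: miR-466d-5p and miR-466n-5p had 82.5 reads each, and the 3p miRs of the mir-297a, mir-297b and mir-297c hairpins had 1.25 each. Within such a group the copies were not measured separately, and only the sum, such as 1846 reads for miR-669d-5p, is a measurement.

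Reads were unevenly placed along the intron. The 12 hairpins at the 5′ end of the array, from Mir466m to Mir466o, held 15.8% of the miR reads, and 10 of the 12 had reads. The middle stretch of 40 hairpins, from Mir467c to Mir669a-12, held 24.0%, but nearly all of this came from its first hairpin: without Mir467c the other members of the stretch held 2.73%. In this stretch 28 of the 40 hairpins were at 0, mostly the repeated Mir669a, Mir467a and Mir466b copies. The 20 hairpins from Mir467e to the 3′ end held 60.2%, and 18 of the 20 had reads. The boundaries of these stretches were set after the values were seen, and they serve as a description.

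**Figure D3:**
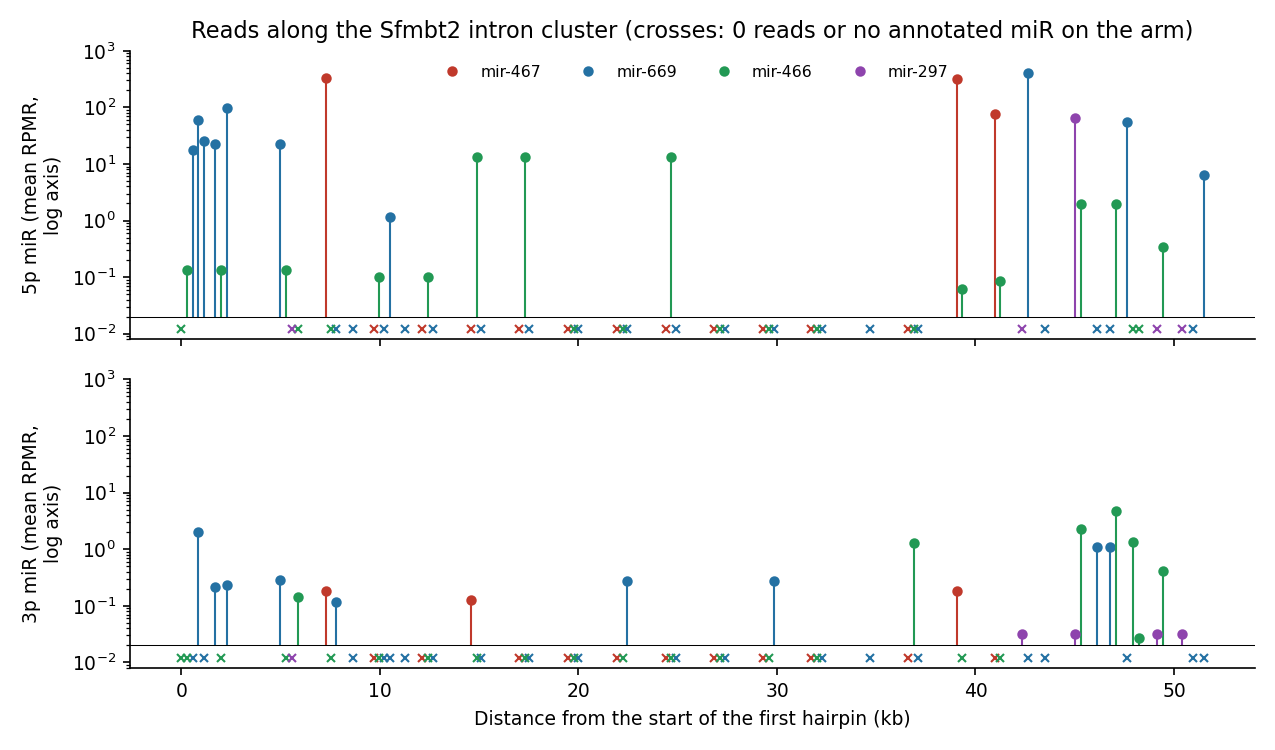
Mean level over 3 libraries of the 5p (upper panel) and 3p miRs (lower panel) of the 72 hairpins, in RPMR on a log axis, against the distance from the start of the first hairpin in kb; colours give the family and crosses mark an arm at 0 or without an annotated miR. High 5p levels stand at both ends of the array with mostly crosses between them, and no 3p miR reaches 10 RPMR.

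In counted reads the cluster was almost entirely from the 5p arm. Of its miR reads 99.0% ± 0.117 (SD, n = 3) were from the 5p arm, compared with 84.3% ± 0.417 in the rest of the series and 67.3% ± 0.844 there when Mir21a, whose 5p miR is by far the most abundant, was left out. In the Dlk1-Dio3 cluster the share was 57.3% ± 5.13. The annotation held 69 members of the 5p arm and 70 of the 3p arm, and 27 and 23 of these had reads, so the excess was one of reads and not of detected miRs. The share was above 99% for mir-467, mir-669 and mir-297 alike and 81.4% ± 2.83 for mir-466. How many reads of each arm were lost to the limit of 5 matching places was not tested, and the comparisons of arms below share this limit.

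To test this by hairpin, the 5p and 3p miR reads of the same libraries were compared with edgeR's quasi-likelihood test at every hairpin with at least 10 reads. Of the 433 hairpins of the series that were tested, 42.7% were called higher for 5p and 46.0% higher for 3p at an adjusted p under 0.05. In the cluster 24 hairpins were tested, of which 16 were higher for 5p, 6 were higher for 3p and 2 were not called. With copies of equal values counted once, 20 remained, 14 higher for 5p and 4 for 3p. At 9 of the 16 and 5 of the 6 the lower arm was at 0. These met the minimum of reads through the higher arm alone, so their calls restate the counts. The other 43 cluster hairpins with both arms annotated had too few reads. The median fitted log2 ratio was 9.03 in the cluster, against -0.27 over all hairpins tested. Set at the floor of 3 reads for an arm at 0, the medians were 7.09 in the cluster and -0.35 over all.

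At 9 of the 16 hairpins that were higher for 5p, the 3p miR had 0 reads in all libraries. Mir669c had 16727 reads of 5p and 0 of 3p. In counted reads 5p was at least 5576-fold higher when 3p is set to a floor of 3 reads summed over libraries (edgeR adjusted p = 3.8e-14). The same held at Mir467d (3183 reads, at least 1061-fold), Mir669o (2327.5 reads, at least 776-fold), Mir669b (1076 reads, at least 359-fold) and Mir669f (747 reads, at least 249-fold). These 5 were named by the size of their fitted ratio, whose order depends on how an arm at 0 is fitted. At each of them 5p was higher in 3 of 3 libraries. Whether 3p reads at the 9 hairpins were lost to the limit of 5 matching places was not tested. The bounds therefore hold for counted reads only.

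Other leading hairpins, chosen after their values were seen, did give some 3p reads. Mir467c had 4456, 4039 and 5339 reads of 5p in replicates 1, 2 and 3, against 2.5, 3 and 2 of 3p, a log2 ratio of 10.69 ± 0.26 (SE; edgeR adjusted p = 1.6e-15). Mir467e had 4826, 3475 and 5118 reads of 5p, against 4.5, 1 and 2 of 3p, a log2 ratio of 10.65 ± 0.28 (SE; edgeR adjusted p = 3.8e-15). In summed reads the arms differed 1845-fold at Mir467c (95% exact interval of the ratio 877 to 4006) and 1789-fold at Mir467e (851 to 3886). These intervals are wider than the edgeR SEs alone would give, the 3p arm having 7.5 summed reads at each. With DESeq2 on window totals the SEs were 0.59 at Mir467c and 0.62 at Mir467e. At Mir669e the gap was far narrower, with 946, 606 and 963 reads of 5p against 31, 25 and 26 of 3p, 30.7-fold (95% exact interval of the ratio 24.6 to 38.7; log2 ratio 4.92 ± 0.21, SE; edgeR adjusted p = 2.5e-12). Its 3p miR was one of the few above 1 RPMR.

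The 6 hairpins higher for 3p were all at low levels and lay in the mir-466 and mir-669 families. Mir466b-3 had 0 reads of 5p and 12, 14 and 29 of 3p (edgeR adjusted p = 2.4e-06). The names of both its arms are annotated at 8 loci, over the limit of 5 matching places, and the 4 reads of miR-466b-5p are all listed at Mir466b-8, so its listed 0 gives no bound on the ratio. Mir669m-1 and Mir669m-2 each had 0 reads of 5p and 17, 12 and 16 of 3p, the same split values at both (at least 15-fold in counted reads, edgeR adjusted p = 7.0e-06). Mir669p-1 and Mir669p-2 each had 0 reads of 5p and 11 of 3p, just inside the minimum of 10 (edgeR adjusted p = 0.0034), whereas Mir466o with 6 reads fell just outside it. At these 5 hairpins no 5p miR read was counted at all, and they met the minimum through the 3p arm alone. Whether 5p reads at the Mir669m and Mir669p hairpins were lost to the limit of 5 matching places was not tested. Their calls therefore hold for counted reads only.

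Mir466n was the one hairpin called for 3p with reads on both arms. It had 27.5, 22 and 33 reads of 5p, shared with Mir466d, and 44, 58 and 94 of 3p, a log2 ratio of -1.21 ± 0.23 (SE; edgeR adjusted p = 0.00019). It was named after its values were seen. The libraries did not overlap between the arms. Its 5p value is an even share of 165 reads held with Mir466d, and the p-values at both hairpins do not cover this split. Mir466d had the same 5p reads and 33, 25 and 38 of 3p, and was not called (log2 ratio -0.21 ± 0.23, SE; edgeR adjusted p = 0.40). Mir466l had 6, 5 and 3 reads of 5p and 7, 3 and 7 of 3p, and was not called either (log2 ratio -0.27 ± 0.53, SE; edgeR adjusted p = 0.63). With edgeR's TMM scaling, which moved the median of all hairpins to -1.28, both were called higher for 3p. The 3 mir-466 hairpins with reads on both arms thus had a smaller gap between arms than the mir-467 and mir-669 leaders.

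**Figure D4:**
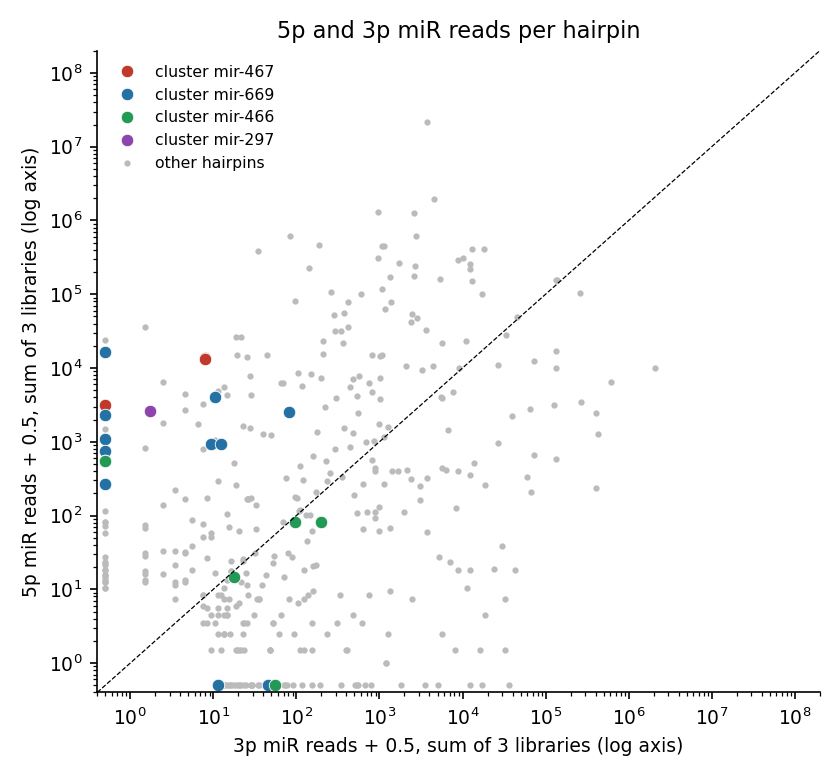
Reads of the 5p miR against reads of the 3p miR, each plus 0.5 and summed over 3 libraries, on log axes, for the 433 hairpins tested; coloured points are the 24 hairpins of the Sfmbt2 cluster and grey points the other hairpins, and the dashed line marks equal reads. Of the cluster hairpins 16 were called above the line and 6 below it, and hairpins with equal values overlie each other.

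moRs of the cluster were rare. They had 17, 20.5 and 22 reads in replicates 1, 2 and 3, 0.0935% ± 0.0229 of the miR and moR reads of the cluster (SD, n = 3), compared with 0.0407% ± 0.00883 in the rest of the series, or 0.0472% ± 0.0107 there without Mir21a, and 0.149% ± 0.0189 in the Dlk1-Dio3 cluster. By moR, 13 of the members had at least part of a read, and at 12 of the 13 the miR of the same arm was at 0. How often moR reads stood beside a miR at 0 in the rest of the series was not counted. The 12 are therefore not shown to be a trait of this cluster. Several of the 12 have names used at more than 1 locus, such as miR-467a-5p at 10 loci. How many of their miR reads were lost to the limit of 5 matching places was not tested. None of the 15 miRs that averaged at least 10 RPMR had a moR read.

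The leading one was moR-669m-5p at Mir669m-2, with 13, 7 and 8 reads in replicates 1, 2 and 3 (0.680 ± 0.238 RPMR, SD, n = 3), the 51st most abundant moR of the series. The 5p miR beside it had 0 reads in every library, while the 3p miR of the hairpin had 45. In the test of moR against miR of the same arm, 5.76% of the 243 arms tested in the series were higher for the moR and 91.8% higher for the miR. Only 2 cluster arms had enough reads. moR-669m-5p was called higher than its miR, at least 9.33-fold against the floor of 3 reads (edgeR adjusted p = 1.1e-05). miR-669m-5p shares its name with a second locus, and whether its reads were lost to the limit of 5 matching places was not tested.

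The second was moR-466d-3p, with 2, 3.5 and 3 reads against 33, 25 and 38 of its miR. It was lower than its miR (log2 ratio -3.36 ± 0.50, SE; edgeR adjusted p = 8.8e-11), but the sign turned to 4.91 with TMM scaling and to 4.97 with DESeq2's own size factors, which moved the median of all arms to -0.47 and -0.42, against -8.67 without them. These scalings set moR and miR columns to a like centre, and with TMM 66 of the 243 arms were called higher for the moR and 104 for the miR, against 14 for the moR without it. In reads the miR was higher in 3 of 3 libraries.

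Between the arms, moRs of 81 hairpins of the series could be tested, of which 81.5% were higher for the 5p moR and 11.1% for the 3p moR. The single cluster hairpin among them, Mir669m-2, had 28 moR reads on its 5p arm, against 0 on its 3p arm, and was higher for 5p (edgeR adjusted p = 1.2e-05), whereas DESeq2 with its own size factors did not call it (log2 ratio 3.24, adjusted p = 0.082). The hairpin met the minimum of reads through its 5p moR alone, so the call restates the counts. Its counted moR and miR reads thus lay on opposite arms of the hairpin. The 3p miR value is shared with Mir669m-1, and whether 5p miR reads were lost to the limit of 5 matching places was not tested.

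The other moRs had 6 reads or fewer. moR-466m-5p had 6 reads, and moR-467a-5p had 6 at Mir467a-1 and a split single read at each of Mir467a-3, Mir467a-6 and Mir467a-10. moR-467b-5p and moR-466h-5p had 3 reads each and moR-669f-3p had 1, and moR-297a-5p had 0.333 at each of 3 hairpins. At the Mir467a hairpins named here the miRs were at 0 while the flanking moR was counted. Since miR-467a-5p is a name at 10 loci, its reads may have fallen to the limit of 5 matching places, which was not tested. Summed over libraries, these moRs had at most 2 times the floor of 3 reads, and their order could not be told at this depth.

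**Figure D5:**
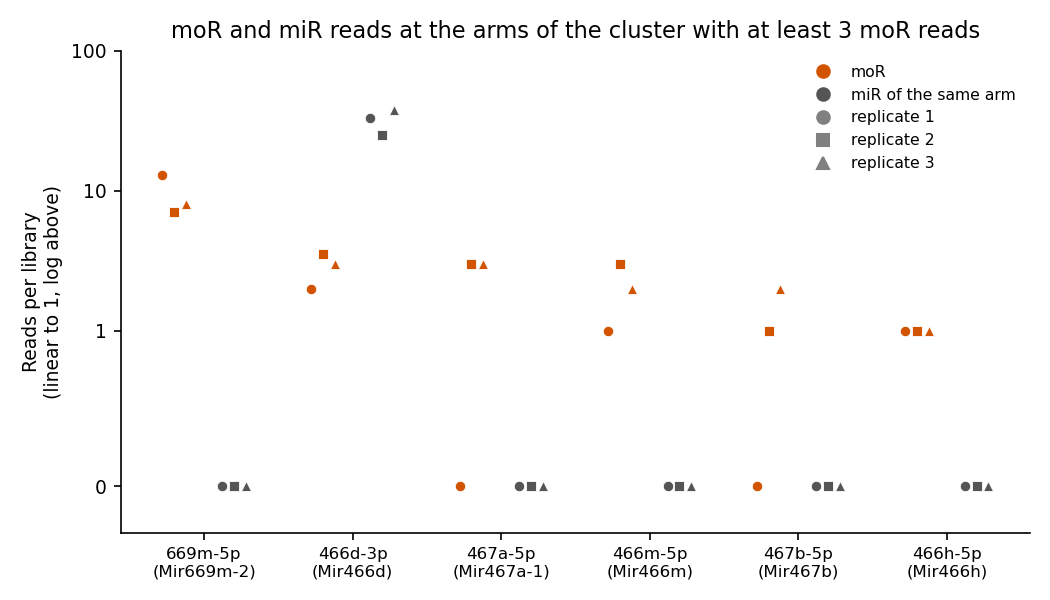
Reads per library of the moR (left points) and of the miR of the same arm (right points) for the 6 cluster arms with at least 3 moR reads, on an axis that is linear to 1 and logarithmic above; symbols give the replicate. All of these miRs except 1 are at 0 in every library, and the miR at Mir466d has 25 to 38 reads.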

How the data were processed

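Small RNA of 3 AoSMC libraries was read as single reads of 75 bases. The authors aligned inserts longer than 13 bases to mm10 with Bowtie (its version is not given in the sources used here) with 0 mismatches, dropped reads matching more than 5 places, and split reads near several precursors evenly. A miR window was the miRBase position widened by 3 bp, and a moR window reached 3 bp inward and 35 bp outward of its outer end. The deposited raw reads are therefore expected counts (96.1% whole, tolerance 1e-09). Deposited RPMR values are RPM over the window reads. The deposited coordinates and library totals were used as given, with starts read as 1-based.

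A located miR missing from the read tables was taken as 0. Hairpins and the host intron are from GENCODE M21. Counts were rounded and tested two-sided with edgeR 4.0.16 (R 4.3.3), quasi-likelihood, with each library as a block and its unscaled window total as its size, for at least 10 summed reads (and at least 1 moR read for moR against miR). Benjamini-Hochberg adjustment ran over all features of the series. The block is set by the design: each library gives both values. An edgeR SE is the absolute log2 ratio divided by the square root of the test's F, and can be smaller than counting error. DESeq2 1.42.0, TMM and other alternatives are given in the closing section. Named members were the 12 miRs of highest mean RPMR, moRs with reads, and up to 5 called hairpins per direction with the largest fitted ratio and up to 3 not called. The members and lists were chosen with earlier results of these data known. Scripts were tested on simulated data.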

Additional observations from a re-analysis of the deposited data

How the results depend on the processing

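The cluster held 0.124% ± 0.00806 (SD, n = 3) of all mapped reads, against 0.157% ± 0.0171 of window reads. Without each replicate in turn its share of window reads was 0.149 to 0.166%. Of the 24 cluster hairpins tested for 5p against 3p miR, 22 kept their direction and call in every one of the 10 alternatives in which they could be tested. The minimum of 30 reads, or leaving out any replicate, took the Mir669p hairpins below the minimum, so that 4 hairpins were higher for 3p. The exceptions were Mir466d and Mir466l, called higher for 3p with TMM (log2 ratios -1.21 and -1.28, edgeR adjusted p = 7.4e-05 and 0.031). Without each replicate in turn Mir466l had log2 ratios of -0.63 to 0.14 and was not called, with the change of sign without replicate 3 (edgeR adjusted p = 0.88). Without the replicate block the cluster counts stayed at 16 and 6, and 189 and 201 hairpins of the series were called, against 185 and 199. For moR against miR, the number of cluster arms higher for the moR was 0 with a minimum of 30 reads, which left out moR-669m-5p, and 2 with TMM or with DESeq2's own size factors, where the number higher for the miR was 0, and moR-466d-3p turned to 4.91 and 4.97. With these size factors 81 arms of the series were higher for the moR and 99 for the miR. Without each replicate in turn, 7 to 12 arms were higher for the moR, against 14. For 5p against 3p moR, DESeq2's own size factors called 0 cluster hairpins, with 22 higher for the 5p moR and 10 for the 3p moR in the series; TMM called 29 and 12, DESeq2 with window totals 52 and 4, and a minimum of 30 reads 42 and 4, against 66 and 9. Without each replicate these were 38 to 55 and 3 to 5. The cause of these changes was not tested. A single read is worth 0.0659 to 0.0797 RPMR, and most cluster moRs had 6 reads or fewer over the 3 libraries.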
